A study of Mus musculus with 29 samples.

Results

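Immediate early genes are transcribed within minutes of a stimulus, without new protein synthesis, and many of their products are transcription factors. The best known is AP-1, a dimer of leucine-zipper proteins, most often one of the Jun family with one of the Fos family. Growth factors, stress and wounding all raise these genes through MAP kinases and serum response factor, in the urothelium as in other epithelia. The 10 members followed here, by their gene symbols, are Fos, Fosb, Fosl1 and Fosl2 of the Fos family, Jun, Junb and Jund of the Jun family, the stress-induced zipper protein Atf3, the zinc-finger factor Egr1 and the nuclear protein Ier2. All 10 had a row in each table used, out of 35199 genes.

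The study expressed VP16;Pparg, a Pparg that is active without ligand, in basal cells of the mouse bladder. The transgene sits in Rosa26 behind a STOP cassette that Cre under the Krt5 promoter removes after tamoxifen, so it starts in Krt5-positive basal cells only. At 4 days after induction there were 4 control libraries (labelled wild type, K5;mTmG in the methods) and 5 mutant libraries (K5VP16;Pparg+/-, with the same reporter). All were made from Gfp-positive cells sorted from bladders without carcinogen. The transgene cassette also holds an EGFP of its own, so mutant cells can carry Gfp from it or from the reporter. Another 12 libraries came from laser-captured frozen tumor tissue of mice given the carcinogen BBN in their water, labelled as 5 months of BBN and 4 months after induction. Of these, 3 are basal tumors of wild-type mice (such controls are VP16;Pparg fl/fl in some passages of the paper and K5;mTmG in others). The K5VP16;Pparg+/- mice gave 3 luminal tumors and, from mixed tumors, 3 regions of luminal and 3 of basal-like character, called luminal and basal-like domains. Per the methods, mice were 8 to 12 weeks old at induction. Neither the labels nor the methods tie captured regions to mice, so regions may share a mouse and the p-values between tumor groups may then be too small.

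Values are normalized counts, read counts that the authors scaled between libraries within a table, so that levels from different tables are not on one scale. Libraries summed to between 36520193 and 41435665 normalized counts in the 4-day table and between 41697178 and 53252995 in the tumor table. The methods state a target depth of sequencing, but the number of reads each library reached is unknown, so no counting interval is given. A gene is called where its adjusted p (limma, Benjamini-Hochberg over all genes tested) is under 0.05, and a log2 fold change is on the scale of log2(normalized count + 1), which understates changes of low genes. In bulk libraries, fewer cells that express a gene and less RNA per cell cannot be told apart.

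RefSeq promoters matched 7 of the 10 members, and the 140 bases before the start are shown for the 6 that held a searched motif there. Short elements near the start can take part in how such genes respond to signals. Capitals mark matches on either strand to TGACG, the core of a CRE (the element bound by CREB and ATF proteins), to TGACNTCA, a CRE with a free centre that overlaps TGACG where N is G, to GCGNGGGCG, a form of the EGR element, and to TATAAA.
Fos, chr12:85473750-85473889, plus strand: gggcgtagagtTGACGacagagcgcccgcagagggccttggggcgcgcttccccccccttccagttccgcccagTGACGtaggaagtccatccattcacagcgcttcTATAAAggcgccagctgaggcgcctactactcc
Fosb, chr7:19310046-19310185, minus strand: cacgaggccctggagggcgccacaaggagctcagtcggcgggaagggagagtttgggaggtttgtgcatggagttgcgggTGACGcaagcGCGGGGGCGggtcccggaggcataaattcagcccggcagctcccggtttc
Fosl2, chr5:32136332-32136471, plus strand: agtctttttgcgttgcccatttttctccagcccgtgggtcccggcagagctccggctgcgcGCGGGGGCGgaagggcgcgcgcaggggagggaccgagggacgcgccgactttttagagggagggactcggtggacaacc
Jun, chr4:95052223-95052362, minus strand: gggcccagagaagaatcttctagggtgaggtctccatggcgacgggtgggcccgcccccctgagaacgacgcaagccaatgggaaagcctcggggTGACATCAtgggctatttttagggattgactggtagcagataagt
Junb, chr8:84978749-84978888, minus strand: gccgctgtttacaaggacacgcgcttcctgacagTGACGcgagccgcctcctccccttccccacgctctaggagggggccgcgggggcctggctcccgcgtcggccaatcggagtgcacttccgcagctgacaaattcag
Atf3, chr1:191183334-191183473, minus strand: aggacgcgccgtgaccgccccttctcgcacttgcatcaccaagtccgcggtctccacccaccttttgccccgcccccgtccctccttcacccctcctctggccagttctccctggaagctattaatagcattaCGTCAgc
These are sequences of build GRCm38.p6, each read 5′ to 3′ along its gene.

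Over the whole 300 bases from 250 before to 50 after the start, TGACG was found in 4 of the 7 member promoters (Fos, Fosb, Junb and Atf3), against 20.8% of all 32851 promoters. Fos held it at -129 and -66 and TATAAA at -33, positions being those of the first base before the start. TGACNTCA was in 1 member promoter, that of Jun at -45, against 8.83% of all promoters. GCGNGGGCG was in 2, those of Fosl2 at -79 and Fosb at -50, against 5.55% of all. TATAAA was in 2, against 13.6% of all, in Fos at -33 and in Junb at bases 1 to 6, after the start. The AP-1 element TGANTCA (7.81% of all) and the CArG box bound by serum response factor (1.63% of all) had no match in these 7 windows, and elements further from the start were not searched.

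**Figure D1:**
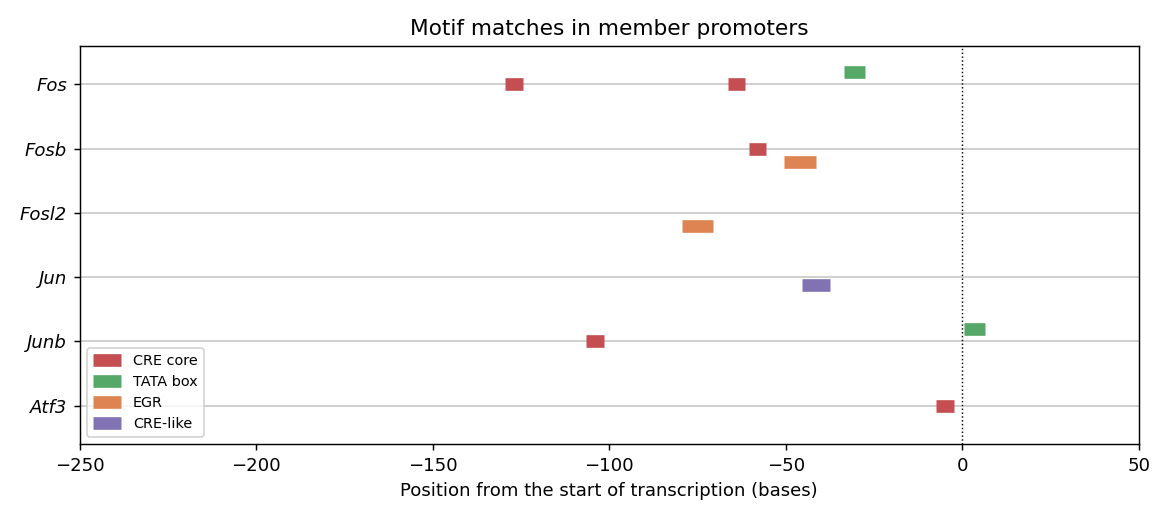
Motif matches in the 6 member promoters that held one, from 250 bases before to 50 bases after the start of transcription (horizontal axis, in bases, dotted line at the start). Bars mark CRE core, CRE-like, EGR and TATA box matches, all but 1 of them before the start.

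At 4 days the question is what the active Pparg changes in basal cells. Per the methods, bladders were perfused with cold protease, and the cells were dispersed, sorted and spun down before RNA extraction. What part of the member levels arose during this handling was not tested. Egr1 was the only member called, higher in the mutants, and the other 9 members were not called. The Egr1 level was 78.3, 217, 156 and 1023 normalized counts in the 4 control libraries, and 2342, 910, 4316, 1501 and 2254 in the 5 mutant libraries. The groups overlap, because control library 4, at 1023, lies above mutant library 2, at 910. The fitted difference was 3.12 on the log2 scale (SE 0.68, 95% interval 1.60 to 4.63, limma adjusted p = 0.0417), a fold of 8.67, higher in 5 of 5 mutant libraries than in 3 of the 4 control libraries. Against the background, 1 of 10 members was called where 467 of 16413 genes tested were called, 2.85% of them. No member had groups that do not overlap, against 9.18% of all genes. The count of called genes itself moved with single libraries, to 154, 129 and 169 without control library 2, 3 or 4 and to 311 and 228 without mutant library 1 or 3.

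The Egr1 call did not hold when most single libraries were left out. Leaving out any 1 of 7 of the 9 libraries ended it, namely control libraries 1 to 3 (adjusted p 0.0767, 0.113 and 0.128) and mutant libraries 1, 3, 4 and 5 (0.0815, 0.0852, 0.0586 and 0.0693), while the difference stayed between 2.60 and 3.83 over all 9 omissions. Without control library 4 the difference was 3.83 (adjusted p = 0.0108). It also missed 0.05 without the variance trend and in a table of 3 against 3 libraries. Y-linked genes summed to 404 in control library 1 and to between 9030 and 9177 in the other 3 control libraries, and to between 338 and 395 in the mutants, so that Y-linked signal and genotype coincide but for control library 1. That library, a control without Y-linked signal, had the lowest Egr1 of all 9. With Y-linked signal (present or absent) as a covariate, a fit that separates it from genotype by this library alone, the difference was 4.65 (limma adjusted p = 0.184).

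**Figure D2:**
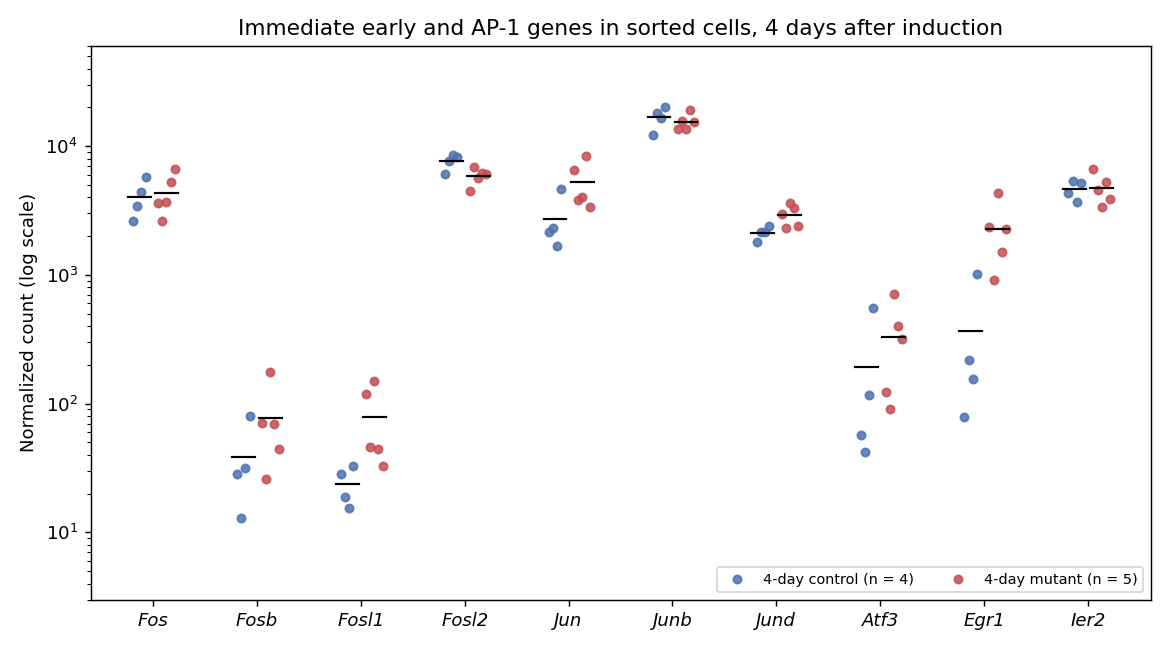
Normalized counts (log axis) of the 10 members in each 4-day library, blue for 4 controls and red for 5 mutants, with a line at each group's mean. Egr1 stands out, with control library 4 at 1023 inside the mutant range of 910 to 4316.

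Fibroblast markers were also higher in the mutant libraries, although per the methods the urothelium was separated from the stroma and Gfp-positive cells were sorted, steps that should leave stromal cells out. All 8 fibroblast markers tested (of 9) were higher in mutants, with a median log2 difference of 2.05, and 2 were called. The called ones were Lum, a collagen-binding proteoglycan (2.70, adjusted p = 0.0303), and Fn1, fibronectin (3.67, adjusted p = 0.0189). The summed level of the list was 13133, 25522, 43529 and 85397 in the control libraries and 98295, 35729, 252929, 133369 and 83941 in the mutants. Dcn was the most abundant gene of the list in 8 of the 9 libraries, Col3a1 in mutant library 5, and Dpt was at 0 in control library 4 and mutant library 1. Within each group, the library with the highest Egr1 (control library 4, mutant library 3) had the highest fibroblast sum as well, and the library with the lowest Egr1 (control library 1, mutant library 2) had the lowest sum. Between these the order differed: control library 3 had the larger sum but the lower Egr1 of control libraries 2 and 3, and mutant library 4 had a larger sum but a lower Egr1 than mutant libraries 1 and 5. Smooth muscle markers were higher in 6 of 7 (median 1.47, none called) and leukocyte markers in 6 of 12 (median 0.02, none called). The leukocyte sum was 24834 in mutant library 3 and 14969 in mutant library 4, against 2057 to 5572 elsewhere. Cd74 alone made up most of both larger sums, at 22059 and 13619. Among the other leukocyte markers, Ptprc was 72.8 and 77.21 in these libraries, inside the control range of 64.96 to 94.64. Csf1r, at 318 and 172, lay above the highest control, at 84.99. Red blood cell genes were higher in 4 of 5 (median 2.06) and endothelium markers in 3 of 6 (median 0.41), with none called on either list. Red blood cell sums were low, between 44.3 and 322 over the 9 libraries. What part such cells have in the Egr1 difference was not tested.

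**Figure D3:**
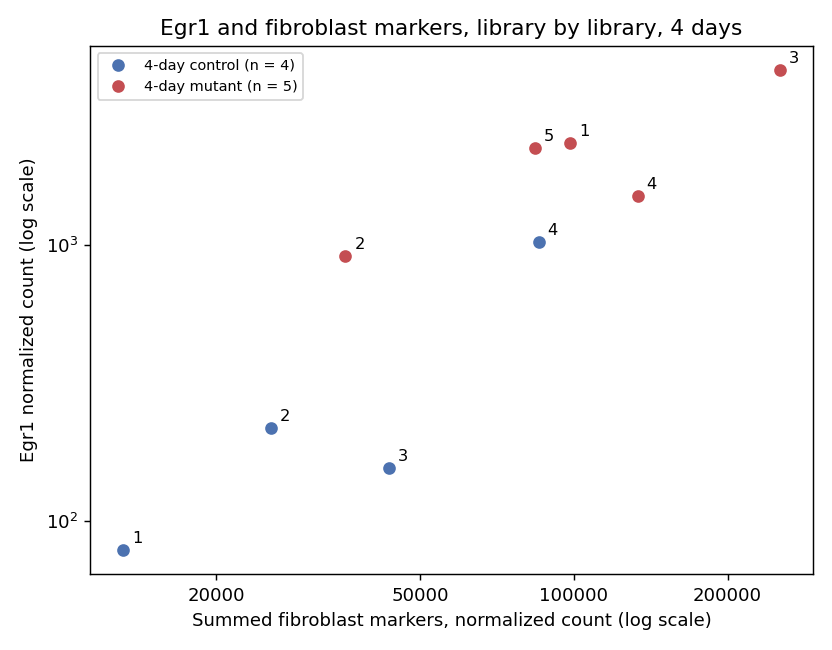
Egr1 normalized count (vertical, log axis) against the summed normalized count of 9 fibroblast markers (horizontal, log axis) in the 4 control and 5 mutant libraries of 4 days, each point labelled with its library number. Mutant library 3 is highest on both axes (252929 and 4316) and control library 1 lowest on both (13133 and 78.3).

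Of the Fos family, Fosl1, a Fos protein without the strong activation domain of Fos, came nearest to a call. It was low in the controls, at 28.5, 18.8, 15.6 and 32.7 normalized counts, and 119, 45.7, 151, 44.1 and 32.5 in the mutants. The difference was 1.47 on the log2 scale (95% interval 0.37 to 2.57, limma adjusted p = 0.131), and the lowest mutant library lay just below the highest control. Fosl2, a Fos protein of the same kind, was the member with the lower level in mutants at an unadjusted p under 0.05. Its mean was 5867 ± 862 (SD, n = 5) in the mutants against 7625 ± 1097 (n = 4) in controls (-0.38, adjusted p = 0.164). Fos itself was 2634, 3427, 4395 and 5741 in the controls and 3598, 2607, 3677, 5252 and 6670 in the mutants, a difference of 0.09 with an interval of -0.56 to 0.74. Fosb differed by 1.00 (interval -0.36 to 2.35).

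In the Jun family, the level of Jun was 2136, 2294, 1677 and 4666 in the controls and 6480, 3829, 4026, 8375 and 3385 in the mutants. Control library 4 again lay inside the mutant range, and the difference of 0.98 had an interval of 0.22 to 1.73 and a limma adjusted p of 0.141. Jund, a family member expressed broadly in resting cells, had a mean of 2919 ± 574 against 2119 ± 246, a difference of 0.45 (adjusted p = 0.134). Junb, the most abundant member by normalized count, was not apart, at 15466 ± 2288 against 16807 ± 3342 (-0.11, interval -0.46 to 0.24). Ier2 differed by 0.00 (interval -0.43 to 0.43) and Atf3 by 1.16 with an interval of -0.64 to 2.96. The spread of Atf3 was wide in both groups, from 42.2 to 550.0 in the controls and 90.2 to 704 in the mutants.

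Taken as a list, 8 of the 10 members were higher in the mutants, with a median of 0.71, against 50.5% of all genes tested and a median of 0.00. An unadjusted p under 0.05 was reached by 5 of 10 members and by 20.8% of all genes. These members are not independent of one another, so the count is a description. Control library 4 was the highest control for 8 of the 10 members, and mutant library 3 the highest mutant for 5 of them. The sign of Ier2 turned under the quantile and upper-quartile scalings, and that of Fos in the smaller table.

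Of the 136 genes tested on 6 lists around AP-1 at 4 days, 5 were called, 3.68% of them against 2.85% of all genes. Of 17 other zipper partners tested, 9 were higher and 1 was called, Batf2, a partner of Jun proteins, at 1.7, 2.8, 2.2 and 8.0 in the controls and 10.6, 15.1, 15.1, 18.9 and 11.9 in the mutants (1.87, adjusted p = 0.0444). These are low levels, and only the mutants reached the minimum of 10 normalized counts, so Batf2 was tested because of the group in which it is higher. Of 39 other immediate early genes, 27 were higher and none was called, with a median of 0.19 and 7 at an unadjusted p under 0.05. Among 29 upstream kinases and serum response factors, Mapk13, a p38 kinase of epithelia, was called, at 1586, 1428, 1487 and 1366 against 2744, 2469, 2243, 1832 and 2118 (0.63, adjusted p = 0.0279). The groups do not overlap for Mapk13.

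Of 14 MAP kinase phosphatases and Sprouty inhibitors tested, 8 were higher and the single call was lower. Spry1, which restrains growth factor signaling through the MAP kinase pathway, fell by 1.22 on the log2 scale (adjusted p = 0.0177), from 1424, 1390, 1784 and 2209 in the controls to 646, 1054, 559, 645 and 761 in the mutants. Every mutant library lay below every control. Known AP-1 targets were higher for 19 of 22 tested, with a median of 0.62, and 1 was called: Cd44, a cell-surface receptor for hyaluronan that is also on the basal list (0.76, adjusted p = 0.0116). Its level was 5651, 4527, 5430 and 4793 in the controls and 7372, 8642, 8365, 8432 and 10465 in the mutants. Timp1, an inhibitor of matrix proteases and not called here, was 115, 252, 422 and 939 in the controls, in the order of their fibroblast sums. In the mutants it was 211, 133, 2014, 1251 and 704, highest in library 3, which had the highest sum. Mutant library 1, however, had less Timp1 than mutant library 5 but the larger fibroblast sum (98295 against 83941). What part fibroblasts have in the shift of the targets was not tested. Of 16 heat shock genes, 12 were higher and Hspa5, the chaperone of the endoplasmic reticulum, was called (0.71, adjusted p = 0.0323).

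The labelled cell type was checked with its markers. Krt5, the keratin of basal cells, was between 91106 and 109572 in the controls and between 62918 and 93817 in the mutants, so basal markers are present in all 9 libraries. Luminal markers were abundant as well, and their sum lay above that of the basal markers in 7 of the 9 libraries. In control library 1 the sums were 484060 and 351655, in mutant library 1 674275 and 213225, and in control library 3 294467 and 369492. Upk1a, a plaque protein of superficial cells, was between 66833 and 119386 in the controls, so the controls too hold RNA of luminal markers and not of basal markers alone. Of 8 basal markers, 3 were higher, and Col17a1, a hemidesmosome collagen, fell by 1.34 (adjusted p = 0.0315). Krt20, a keratin of superficial cells, rose by 1.83 (adjusted p = 0.0444), 1 of 11 luminal markers called, of which 8 were higher. The Pparg row was 9617, 9999, 9821 and 9381 in the controls and 6646, 9032, 6111, 7863 and 8458 in the mutants (-0.36, adjusted p = 0.126), so it did not mark the transgene, and whether transgene reads count in it is not stated.

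Leaving out predicted genes (symbols of Gm and digits, or ending in Rik), the 5 genes most like Fos over the 9 libraries at 4 days, after subtracting group means, were Abhd18, Zkscan5, Muc6, Rapgef4 and Zfp414, with r from 0.94 to 0.97 and ranks 1, 2, 3, 6 and 7 among all genes compared. Among the other 9 members, r with Fos was 0.69 for Atf3, 0.60 for Junb, 0.58 for Egr1, 0.36 for Fosb, 0.35 for Fosl2, 0.31 for Jun, 0.29 for Jund, -0.05 for Ier2 and -0.30 for Fosl1. With 9 libraries and 16412 genes compared, such values describe these libraries and no more.

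Between luminal and basal tumors the question is how the tumor subtypes differ. All luminal tumors came from K5VP16;Pparg+/- mice and all basal tumors from wild-type mice, so subtype and transgene cannot be told apart. No member was called, where 338 of 15357 genes were called, 2.20% of them, and 1 of 10 members reached an unadjusted p under 0.05, as did 18.4% of all genes. The count of called genes was 14, 211 and 100 without basal tumor 1, 2 or 3, 3, 3 and 813 without luminal tumor 1, 2 or 3, and 117 and 116 without either domain. The member past 0.05 was Fosb, a Fos protein with an activation domain. It was 120, 65.2 and 259 normalized counts in the basal tumors and 9.0, 48.7 and 8.9 in the luminal tumors. The groups do not overlap for Fosb, as for 21.5% of all genes tested, and the difference was -2.91 on the log2 scale (95% interval -5.60 to -0.21, limma adjusted p = 0.240). In the 2 luminal-domain libraries of the same table Fosb was 93.1 and 226, inside the basal range.

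Fos went the other way, at 1385, 392 and 2080 in the basal tumors and 1641, 3185 and 1722 in the luminal tumors (1.00, interval -0.36 to 2.36). Egr1 was 837, 3566 and 1233 in the basal tumors against 76.4, 1281 and 1422 in the luminal tumors (-1.57, interval -4.22 to 1.08). Both groups spread over a wide range and overlap. Junb, Jund and Ier2 lay close together, with differences of 0.02, 0.15 and -0.20 and intervals within 1.03 of 0 on either side. Fosl1 (-0.26), Jun (-0.25), Fosl2 (0.32) and Atf3 (0.60) differed by less than their spread. Of the 10 members 5 were higher, with a median of -0.09 against -0.11 over all genes, and quantile and upper-quartile scaling moved that all-gene median to 0.02 and -0.19. The signs of Fosl1, Junb and Jund turned under quantile scaling, and that of Junb under upper-quartile scaling too.

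**Figure D4:**
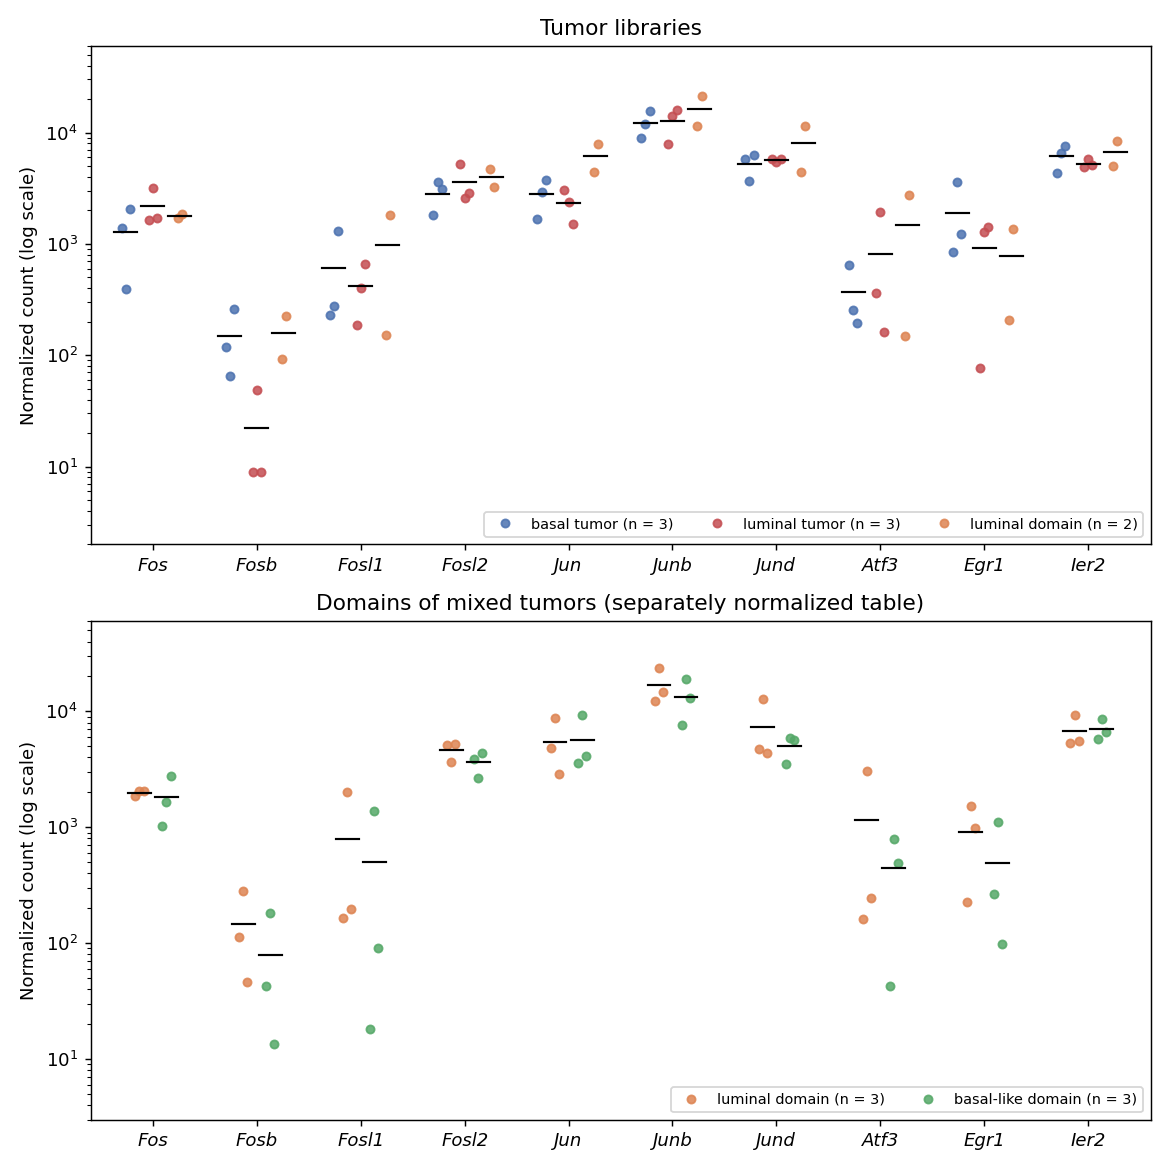
Normalized counts (log axis) of the 10 members in the tumor libraries (upper panel, 3 basal tumors, 3 luminal tumors and 2 luminal domains) and in the domain libraries (lower panel, 3 luminal and 3 basal-like domains), with a line at each group's mean. Fosb is the only member of the upper panel whose luminal tumors, at 8.9 to 48.7, all lie below the basal tumors.

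Known AP-1 targets moved both ways between these tumors. Of 27 tested, 9 were higher in the luminal tumors, 2 were called higher and 1 lower, with a median of -1.49. Ivl, a precursor of the cornified envelope, was 225, 4873 and 1177 in the basal tumors and 37912, 82106 and 29102 in the luminal tumors (5.36, adjusted p = 0.0364). Sprr1a, another envelope protein, differed by 4.70 (adjusted p = 0.0303). Spp1, the secreted protein osteopontin, fell by 6.77 (adjusted p = 0.0464), from 45541, 5612 and 4576 to 174, 8.2 and 565. None of 18 other zipper partners (5 higher), 40 other immediate early genes (17 higher), 29 upstream genes (16 higher), 15 phosphatases and Sprouty inhibitors (3 higher) or 16 heat shock genes (11 higher) was called. Over the 6 lists, 3 of 144 genes were called, 2.08% against 2.20% of all genes.

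Tissue makeup differed widely between the same libraries. Fibroblast markers were lower in the luminal tumors for 9 of 9 (median -5.26, 4 called) and smooth muscle markers for 8 of 8 (median -6.60, 4 called). Their sums were 87642, 52852 and 76671 for fibroblast markers in the basal tumors and 880, 300.0 and 19333 in the luminal tumors. Leukocyte markers were lower for 12 of 14 (none called), summing to 153335, 118166 and 45119 against 20871, 1630 and 26411. Single genes made up most of the larger sums, Lyz2 at 127531 in basal tumor 1 and Cd74 at 85619 in basal tumor 2. Luminal markers were higher for 11 of 11, of which 6 were called, among them Pparg (6.74, adjusted p = 0.0135), and 3 of 8 basal markers were called lower. The luminal tumors also carry Pparg as the transgene, and whether transgene reads count in the Pparg row is not stated. Red blood cell genes were higher for 5 of 5 (median 1.93, none called), and luminal tumor 2 stood apart with a sum of 363591, against 4131 and 2775 in the other luminal tumors. Luminal tumors 1, 2 and 3 were the highest of their group for 3, 4 and 3 of the 10 members. The part of these cells in the member and Spp1 values was not tested.

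Luminal domains against basal tumors gave no called member either, where 377 of 14921 genes were called, 2.53% of them, and no member reached an unadjusted p under 0.05 in limma, as 20.6% of all genes did. This comparison shares its 3 basal tumors with the previous one, and 2 of its domains are in that table, so the values stand side by side and are not independent. The domains, too, came from K5VP16;Pparg+/- mice only, so tissue type and transgene again cannot be told apart. Fosl2 had the smallest p, at 1926, 3681 and 3210 in the basal tumors and 5007, 3546 and 5109 in the domains (0.66, interval -0.11 to 1.44, adjusted p = 0.312). Jun was 1769, 3017 and 3946 against 4722, 8538 and 2822 (0.81, interval -0.27 to 1.90). None of the 10 members had groups that do not overlap, against 26.8% of all genes, and 7 of 10 were higher, with a median of 0.31 against 0.01 over all genes, though Ier2 turned sign under both scalings. Without basal tumor 1 or 3 the called genes numbered 22 and 160, and without domain 1, 2 or 3 they numbered 0, 0 and 3.

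Luminal domain library 2 decided that median. It was the highest domain for 9 of the 10 members, with Atf3 at 3008 against 160 and 240, Fosl1 at 1963 against 162 and 195, and Jund at 12469 against 4743 and 4324. Without it the member median was -0.23. Of 28 AP-1 targets, 10 were higher and 3 were called: Ivl (5.20, adjusted p = 0.0482) and Sprr1a (4.58, adjusted p = 0.0258) higher, and Timp1 lower (-3.61, adjusted p = 0.0443), at 9196, 1427 and 6286 against 236, 397 and 478. None was called on the other 5 lists around AP-1, which makes 3 of 145 genes, 2.07% against 2.53% of all genes. Stromal markers were lower in the domains too, fibroblast markers for 8 of 8 (median -2.81, 1 called) and smooth muscle markers for 8 of 8 (median -3.80, 3 called). The fibroblast sums were 94017, 55217 and 81019 in the basal tumors and 32539, 6652 and 6058 in the domains, and the part of such cells in the Timp1 value was not tested. Hemoglobin genes were higher in the domains as well, 4 of 5 red blood cell genes called.

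Basal-like domains were compared with luminal domains of mixed tumors, to ask what changes within one lesion type. limma called none of 14874 genes (0% called), and 757 genes, 5.09%, had an unadjusted p under 0.05, with 0 of the 10 members among them. Without the variance trend 20 genes were called, none of them a member. Of the 10 members, 2 were higher in the basal-like domains, with a median of -0.39, against 50.7% of genes and a median of 0.01, and no member had groups that do not overlap (10.8% of all genes). The intervals are wide for some members, for Fosl1 from -5.33 to 2.16 and for Egr1 from -3.52 to 1.16. They are narrower for others, for Ier2 from -0.56 to 0.74. For Fosl1, differences of several fold either way cannot be told from none with 3 against 3 regions.

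The spread lay within the groups. Fosl1 was 163, 2005 and 199 in the luminal domains and 18.1, 1385 and 90.8 in the basal-like domains. Jun was 4786, 8765 and 2895 against 3582, 9231 and 4080, and Junb was 12273, 23531 and 14730 against 7667, 19041 and 13105. Library 2 of each kind was the highest of its group for 9 and 8 of the 10 members, and numbers follow column order. The study took both kinds of domain from mixed lesions, but no label says which regions share one, so the fit is unpaired and a difference within lesions may be hidden by the spread between them. Luminal markers were lower for 11 of 11 in the basal-like domains (median -1.15) and basal markers higher for 8 of 8 (median 0.50), none called, while fibroblast markers were higher for 7 of 8 (median 1.68, none called). Red blood cell genes were lower for 5 of 5 (median -2.45), none called but all 5 at an unadjusted p under 0.05. No list around AP-1 held a called gene here.

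**Figure D5:**
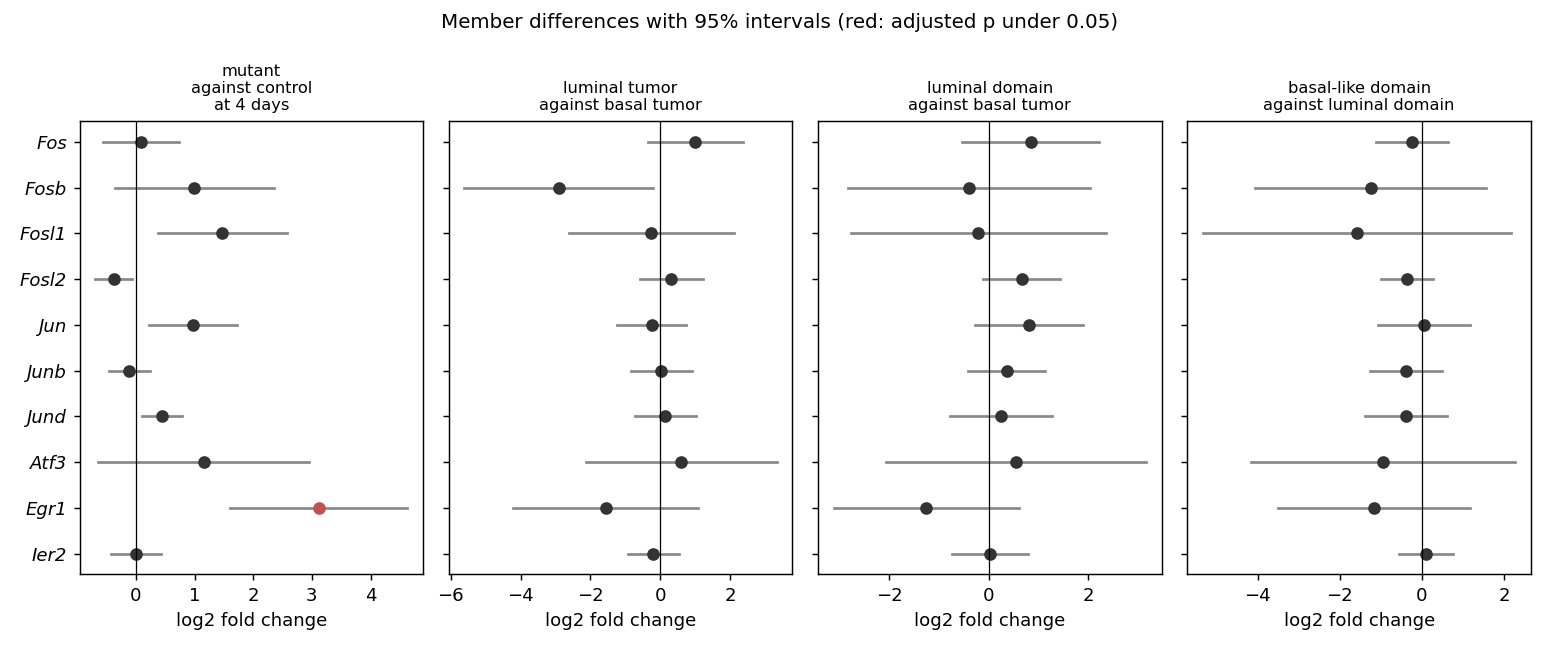
Log2 fold changes of the 10 members (horizontal axis) in 4 comparisons, with 95% intervals from limma, red where the adjusted p is under 0.05. Egr1 at 4 days (3.12) is the one red point, and in the 3 tumor comparisons each interval spans 0 apart from that of Fosb between luminal and basal tumors (-5.60 to -0.21).

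With the same genes left out, the 5 most like Fosl1 over the 8 libraries of the tumor table, after subtracting the means of the 3 groups, were Ctsb, Dtd2, Arl14ep, Scpep1 and Grid2ip, with r from 0.97 to 0.98 and ranks 2 to 6. Junb (r = 0.90), Ier2 (0.82) and Jund (0.78) were the nearest members, followed by Egr1 (0.59), Fosb (0.57), Jun (0.44), Fos (0.38), Atf3 (0.36) and Fosl2 (-0.33). Without luminal domain library 2, a setting chosen after seeing the data, the other domain library is alone in its group and deviates by 0, so 6 libraries inform r. It was 0.87 for Junb and 0.66 for Ier2, but 0.43 for Jund, 0.16 for Jun and -0.37 for Atf3, and between -0.14 and 0.52 for the other 4 members.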

How the data were processed

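The authors quantified reads with kallisto 0.44.0, summed them to genes with tximport, and normalized each table separately with DESeq2 1.18, per the labels and methods. The signal deposited by the authors is thus a normalized count with gene-specific factors, from which whole reads cannot be recovered. The labels list both GRCh38 and GRCm38, a human and a mouse build, and do not say which served for the index. Columns were tied to groups by the tables that each sample's label names and, at 4 days, by the sizes of the sets of columns (4 and 5), and were numbered in column order. Values were taken as log2(normalized count + 1) and fitted with limma 3.58.1 in R 4.3.3 (lmFit, then eBayes with a mean-variance trend), a procedure tested on simulated data. A gene was kept if it reached 10 normalized counts in a number of libraries equal to the smaller group. Tumors were fitted as 3 groups over 8 libraries. The members and lists were chosen with earlier results of these data known. Genes named are the 10 members, list genes called in a comparison (at most 6 a list), and the 5 genes most like Fos and the 5 most like Fosl1, without predicted genes (Gm and digits, or Rik). The 8 columns of a table of untreated and BBN-treated urothelium were not used here, because no label ties them to either condition. Tables of the authors' own fold changes and p-values were not used. Alternatives were other pseudocounts, filters, variance models, weights and scalings, other tables, a Y-linked covariate and leave-one-out fits. Motifs and figures were made with Python 3.11.15 and matplotlib 3.10.9.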

Additional observations from a re-analysis of the deposited data

Results flagged for a closer look

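At 4 days, 20 sets were checked, each holding a member's values in the 4 control or 5 mutant libraries. In 2 of them a library lay far from the others on the scale of normalized counts. Chance gives about 1 in 20 for independent, normally distributed values. Members are not independent of one another, and normalized counts need not be normally distributed, so that rate is only a rough guide. Both outlying values are from control library 4. Its Atf3 level was 550.0 normalized counts, against 42.2 to 117 in the other 3 controls, and its Egr1 level was 1023, against 78.3 to 217. On the log2 scale used in the fits, its gap was 0.61 of the range of the controls for Atf3 and 0.60 for Egr1, and neither stood apart. The same library had the highest fibroblast sum of the controls, 85397, and what part those cells have in both values was not tested.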

How the results depend on the processing

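No paired analysis was possible because the table columns carry library codes that are not tied to replicate numbers, to mice or to lesions; the replicate fit between the domains was therefore not run, nor was the comparison of 1 month of BBN with untreated urothelium. The Egr1 difference at 4 days kept its sign in every setting run, from 2.60 to 4.65, with an adjusted p from 0.0108 to 0.185, and missed 0.05 in 10 of them. Member calls at 4 days were 0 without the variance trend, 0 in the table of 3 against 3 libraries, 0 with the Y-linked covariate, and 0 or 1 over the leave-one-out fits. No member was called in the tumor and domain comparisons under any setting run.

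Counts of called genes moved further than those of members. Without the trend they were 269 at 4 days, 142 for luminal tumors, 107 for luminal domains and 20 between domains. Array weights gave 1054 at 4 days, the table of 3 against 3 libraries gave 147, the Y-linked covariate 26, and the fit without control library 4 and mutant library 3, added after seeing the data, gave 73. With no filter luminal tumors gave 52 and luminal domains 144. Pooling 5 luminal libraries gave 513, the 6 libraries alone 142, and the 2 domain libraries of the tumor table gave 53. Leave-one-out counts ran from 129 to 596 at 4 days, 3 to 813 for luminal tumors and 0 to 467 for luminal domains. Higher calls were 290 of 467 at 4 days and 270 of 557 after quantile normalization, and for luminal domains 254 of 377 and 179 of 313 after upper-quartile scaling. The causes of these changes were not tested.

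Signs turned for members that were not called, 13 of 199 values at 4 days, 16 of 180 for luminal tumors, 13 of 150 for luminal domains and 9 of 150 between domains. At 4 days Ier2 was -0.088 with array weights, -0.049 with quantile and -0.022 with upper-quartile scaling. In the smaller table Ier2 was -0.26 and Fos -0.14. Junb was 0.32 with the Y-linked covariate and 0.032 in the added fit. For luminal tumors Junb was -0.086 with array weights, -0.19 with quantile and -0.056 with upper-quartile scaling, Fosl1 0.030 and Jund -0.019 with quantile scaling, and Jun 0.31 with luminal libraries pooled. For luminal domains Ier2 was -0.075 with quantile and -0.12 with upper-quartile scaling, and with the tumor table Fosb was 0.20 and Fosl1 0.26.

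Over leave-one-out fits at 4 days, Fos ran from -0.10 to 0.28 and Ier2 from -0.13 to 0.12. For luminal tumors Fosl1 ran from -0.71 to 0.53, Fosl2 from -0.00035 to 0.51, Jun from -0.58 to 0.028, Junb from -0.18 to 0.34, Jund from -0.090 to 0.29 and Atf3 from -0.39 to 1.39. For luminal domains Fosb ran from -1.04 to 0.24, Fosl1 from -1.36 to 0.59, Jund from -0.24 to 0.53, Atf3 from -0.76 to 1.35 and Ier2 from -0.22 to 0.20. Between domains Fos ran from -0.61 to 0.12, Jun from -0.37 to 0.46, Jund from -0.67 to 0.10, Atf3 from -1.77 to 0.36 and Ier2 from -0.067 to 0.34. The reads each library reached are unknown, so how far it limits the low members Fosb and Fosl1 cannot be told.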
